A study of Mus musculus with 2 samples.

Results

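Cd34, Emcn, Podxl, Ly6a and Ly6c1 encode proteins that coat the surface of endothelial cells, and their transcripts were compared between the libraries aKO and aWT in 5 endothelial classes of the mouse lung. Cd34 and Ly6c1 carried the widest differences: in general capillary cells Cd34 stood at 614 CPM (counts per 1000000 counts of the class) in aKO against 84.8 CPM in aWT, and Ly6c1 at 2525 CPM in aKO against 549 CPM in aWT. Ly6a was also higher in aKO in each of the 4 blood vessel classes. By class totals Emcn was higher in aKO most in venous cells, less so in arterial cells, lymphatic cells and aerocytes, and nearly level in general capillary cells. Podxl was at or below its aWT level in the capillary and venous cells. These 5 genes are 5 of the 32286 features of the deposited matrices and were taken by their symbols. They were chosen by the summed counts of these same libraries, which had shown them to differ between classes or libraries, so every level and ratio of theirs is a description, and none was tested.

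The cells came from dissociated lungs of C57BL/6J mice aged 10 to 12 weeks. In both groups VE-cadherin-cre, a recombinase driven by the promoter of an endothelial cadherin, had switched on the red fluorescent reporter tdTomato, and cells with red fluorescence were sorted for droplet sequencing with the 10x Genomics 3′ kit. The kit reads transcripts near their 3′ end and counts each captured molecule once, as a unique molecular identifier (UMI). The label aKO was given to 1 library and the label aWT to 1 library, and the series title names hereditary hemorrhagic telangiectasia 2 as the disease modelled, an inherited malformation of small vessels caused by loss of ALK1, the BMP receptor that Acvrl1 encodes. The labels state neither a treatment, nor the deleted gene or exon, nor how many mice went into a library. A single library stands for each group, so no spread between replicates could be measured, and all intervals below are 95% intervals for counting error only.

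CD34, podocalyxin (Podxl) and endomucin (Emcn) are sialomucins, membrane proteins whose long extracellular stalks are crowded with O-linked, sialic acid capped sugars. The charged stalk keeps membranes apart and makes these proteins anti-adhesive on most vessels, while on the high endothelial venules of lymph nodes suitably sulphated forms of CD34 and podocalyxin present ligands to L-selectin. The short tails of CD34 and podocalyxin bind adaptors such as the NHERF proteins and ezrin, which tie them to the actin cortex. Ly6a, also called Sca-1, and Ly6c1 belong to the Ly6 and uPAR superfamily, small three-finger domain proteins held on the outer membrane leaflet by a glycosylphosphatidylinositol (GPI) anchor. In the mouse both are familiar as sorting markers, Ly6a on haematopoietic stem and progenitor cells and on endothelium, and Ly6c1 on endothelium, and both are known to respond to interferons.

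In mm10, with the GENCODE M21 annotation, Cd34 (ENSMUSG00000016494) lies on chromosome 1 from 194938819 to 194961279 on the plus strand, and Emcn (ENSMUSG00000054690) on chromosome 3 from 137341067 to 137432185 on the plus strand. Podxl (ENSMUSG00000025608) lies on chromosome 6 from 31519488 to 31563981 on the minus strand. Ly6a (ENSMUSG00000075602) and Ly6c1 (ENSMUSG00000079018) sit in the Ly6 cluster of chromosome 15, at 74994877 to 74998031 and at 75044018 to 75048830, both on the minus strand and 45987 bases apart. Ly6c2, a close copy, follows at 75108158 to 75111970. The Ly6c1 and Ly6c2 transcripts are 95.02% identical over their length and 94.84% identical over the last 400 bases, the stretch that 3′ reads mostly cover. Counting could therefore have split reads between the copies, and Ly6c1 values are uncertain to that extent. Ly6c2 itself was listed at no more than 1.65 CPM in any endothelial class of either library.

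Promoters are shown because Cd34 and Ly6c1 stood higher together in aKO general capillary cells while Emcn did not. The RefSeq promoter windows of build GRCm38.p6 run from 250 bases before to 50 bases after the start of transcription. Entries were found for 3 of the 5 genes, Cd34, Emcn and Ly6c1. Sequences are written 5′ to 3′ on the gene's own strand, and capitals mark each GGAA, the core bound by ETS family factors, or its reverse complement TTCC.
Cd34, chr1:194938571-194938870, plus strand: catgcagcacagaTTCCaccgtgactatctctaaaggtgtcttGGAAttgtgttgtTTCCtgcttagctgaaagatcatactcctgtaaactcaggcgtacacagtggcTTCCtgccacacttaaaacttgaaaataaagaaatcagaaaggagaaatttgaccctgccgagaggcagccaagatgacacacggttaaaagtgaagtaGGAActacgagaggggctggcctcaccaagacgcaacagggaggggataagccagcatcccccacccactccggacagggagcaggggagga
Emcn, chr3:137340828-137341127, plus strand: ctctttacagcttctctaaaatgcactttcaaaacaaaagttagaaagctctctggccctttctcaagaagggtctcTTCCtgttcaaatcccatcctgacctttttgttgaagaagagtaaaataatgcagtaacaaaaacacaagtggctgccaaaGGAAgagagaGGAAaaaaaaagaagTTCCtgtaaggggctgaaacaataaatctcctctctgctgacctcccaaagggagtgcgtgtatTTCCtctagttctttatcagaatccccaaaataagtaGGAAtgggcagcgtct
Ly6c1, chr15:75048788-75049087, minus strand: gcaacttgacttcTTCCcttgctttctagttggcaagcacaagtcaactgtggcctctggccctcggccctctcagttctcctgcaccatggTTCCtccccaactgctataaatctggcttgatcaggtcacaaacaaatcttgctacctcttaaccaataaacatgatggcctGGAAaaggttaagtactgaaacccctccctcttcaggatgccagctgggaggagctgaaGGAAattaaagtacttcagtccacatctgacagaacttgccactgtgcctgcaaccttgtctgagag
The ETS core was found 5 times in the Cd34 window, 6 times in the Emcn window and 4 times in the Ly6c1 window, counting both strands. It occurs at least once in 95.98% of the 32851 promoter windows of the table, with a median of 3 matches, so its presence sets none of these promoters apart. GATAA, a core of zinc finger factors active in endothelium, was found 1 time for Cd34, 1 time for Emcn and 0 times for Ly6c1, against 25.41% of all windows with a match. CANNTG, the E-box, had 0 matches for Cd34, 1 for Emcn and 4 for Ly6c1 (72.31% of all windows), and CACCC, a core read by KLF factors, had 1, 0 and 0 in the same order (57.52%). GGCGCC, a GC-rich element of BMP-SMAD binding, matched in none of the 3 windows and in 11.87% of all windows. These matches describe letters and not binding.

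The aKO matrix held 11045 barcodes with 75950364 UMIs and the aWT matrix 15996 barcodes with 72270260 UMIs, and 48 barcode sequences occurred in both. After filtering, 10247 aKO and 14640 aWT endothelial cells remained, with medians of 5764 UMIs per cell in aKO and 3914 in aWT. Acvrl1 stood at 486 CPM in aKO and 1024 CPM in aWT endothelial cells, and Id1, a BMP target, at 118 CPM in aKO and 1198 CPM in aWT. The libraries also differed in ways that the groups do not separate. Xist, the RNA of the silenced X chromosome of female cells, was at 730 CPM in aKO and 3.49 CPM in aWT, so the sex of the animals and the label cannot be told apart. Free RNA of other lung cells was lower in aKO, with Sftpc at 6.58 CPM in aKO and 148 CPM in aWT endothelial cells and Lyz2 at 0.806 CPM in aKO and 21.9 CPM in aWT.

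Each endothelial cell was placed by 5 lists of 10 marker genes, none of which holds Cd34, Emcn, Podxl, Ly6a or Ly6c1, and class names stand for the leading list. General capillary cells, the progenitor-like cells that carry Gpihbp1 and Kit, numbered 3591 in aKO and 7542 in aWT. Aerocytes, the Car4-rich capillary cells specialised for gas exchange, numbered 1056 in aKO and 2336 in aWT. The arterial class held 1411 aKO and 580 aWT cells, the venous class 534 aKO and 1074 aWT cells, and the lymphatic class 1378 aKO and 434 aWT cells, while 2277 aKO and 2674 aWT endothelial cells had no leading list. Each class carried its own list at 4757 to 22554 CPM in aKO and 6116 to 21497 CPM in aWT, and the immune list at 2.51 to 42 CPM in aKO and 17.8 to 36.9 CPM in aWT. The class lists themselves differed between libraries: the general capillary list summed to 10046 CPM in aKO and 14517 CPM in aWT general capillary cells, the arterial list to 4757 CPM in aKO and 6116 CPM in aWT in arterial cells, and the venous list to 7289 CPM in aKO and 10814 CPM in aWT in venous cells. Of the 10 general capillary genes 9 were lower in aKO general capillary cells and 1 higher, Adgrl3, at 5606 CPM in aKO and 4537 CPM in aWT. With Adgrl3 left off the list, the general capillary class held 2618 aKO and 7375 aWT cells. Arterial Gja5, a gap junction gene of arteries, stood at 162 CPM in aKO and 363 CPM in aWT, and venous Slc6a2, a noradrenaline transporter gene, at 497 CPM in aKO and 2488 CPM in aWT. The genes of a list did not all go that way. In arterial cells 8 of the 10 arterial genes were lower in aKO and 2 higher. In venous cells 6 of the 10 venous genes were lower in aKO and 4 higher. A class is thus a range of marker UMIs and not a fixed type, and the part of this shift in the results below was not tested.

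In counts by size, a gene was called when it was at least 2-fold apart after adding 5 CPM and reached 20 CPM in 1 library, and all 5 genes reached that level in all 5 classes. In general capillary cells 3 of the 5 were called higher in aKO and 0 lower, against 5.66% of 7267 genes called in either direction, 2.97% higher and 2.68% lower. In aerocytes it was 1 of 5 higher and 0 lower, against 3.13% in either direction, 1.52% higher and 1.61% lower. In arterial cells 3 of 5 were higher and 0 lower, against 6.03% in either direction, 3.02% higher and 3.02% lower. Venous cells had 4 of 5 higher and 0 lower, against 7.96% in either direction, 4.78% higher and 3.18% lower. Lymphatic cells had 0 of 5 in either direction, where 2.82% of genes were called, 1.21% higher and 1.61% lower. Since these contrasts took part in the choice of the genes, nothing is read from the shares. The closest values to the limit were Ly6a in venous cells, just past it with a log2 ratio of 1.00, and Ly6c1 in aerocytes and Emcn in arterial cells, just under it at 0.90 and 0.89.

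**Figure D1:**
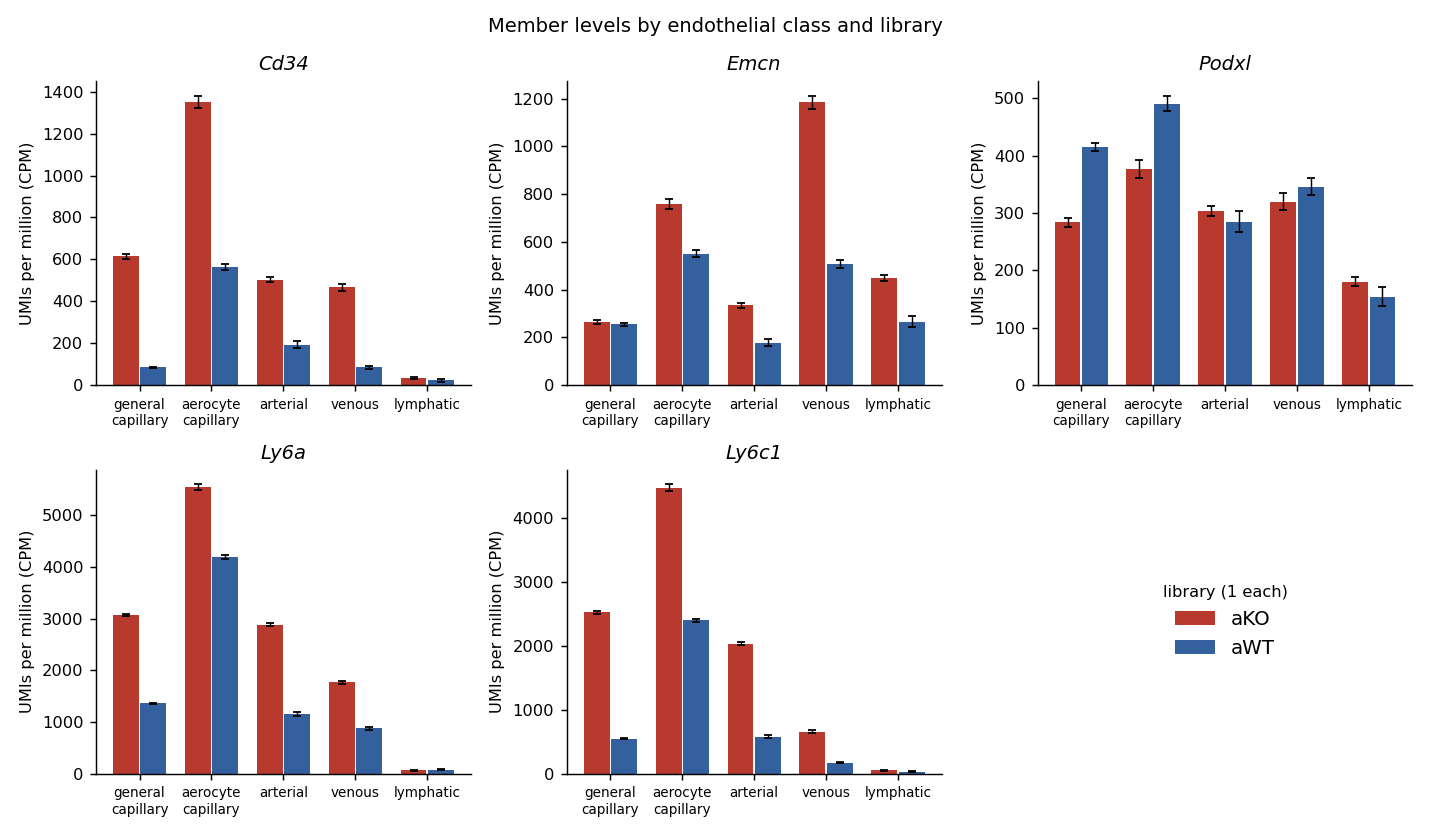
Levels of the 5 genes in the 5 endothelial classes, as CPM, UMIs scaled to the class total (linear axes from 0), with aKO in red and aWT in blue, 1 library each, and exact Poisson 95% intervals for counting error as bars. Cd34, Ly6a and Ly6c1 are tallest in aerocytes and nearly absent from lymphatic cells in both libraries, and Emcn is tallest in aKO venous cells at 1184 CPM.

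Cd34, the founding member of the sialomucin family, was higher in aKO in each blood vessel class. It stood at 614 CPM (603 to 626) in aKO and 84.8 CPM (81.5 to 88.3) in aWT general capillary cells, a log2 ratio of 2.79 for aKO over aWT, which placed it at rank 12 of 7267 genes. Venous cells had 466 CPM (448 to 484) in aKO and 84.7 CPM (77.5 to 92.4) in aWT, a log2 ratio of 2.39. In these classes the aKO level was over 5 times the aWT level, and the counting intervals lay far apart. Arterial cells had 503 CPM (491 to 515) in aKO and 192 CPM (177 to 208) in aWT, a log2 ratio of 1.37. Aerocytes had the highest level in either library, at 1352 CPM (1323 to 1382) in aKO and 563 CPM (549 to 577) in aWT, with a smaller log2 ratio of 1.26. Lymphatic cells stood lowest, at 32.8 CPM (29.4 to 36.4) in aKO and 21.7 CPM (16.1 to 28.6) in aWT.

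The order of the classes for Cd34 differed between the libraries. In aKO it ran from aerocytes through general capillary, arterial and venous to lymphatic cells, with no overlap of counting intervals between neighbours. In aWT arterial cells came next after aerocytes, and general capillary and venous cells could not be separated beyond counting error. The range between the highest and the lowest class was 41.3-fold in aKO and 26-fold in aWT.

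The Cd34 difference was also one of how many cells held a UMI. With every cell thinned to 2000 UMIs, which left out 775 aKO and 1200 aWT general capillary cells, 63.2% (61.4 to 65) of aKO and 14.7% (13.8 to 15.6) of aWT general capillary cells had a Cd34 UMI, and unthinned it was 72.3% in aKO and 23.7% in aWT. Venous cells had 49.8% in aKO and 12.4% in aWT (unthinned 80.5% in aKO and 26.3% in aWT). Arterial cells had 56.7% in aKO and 23% in aWT (unthinned 83.6% in aKO and 38.5% in aWT), and aerocytes 88.3% in aKO and 63.1% in aWT (unthinned 94.5% in aKO and 80.3% in aWT). The median general capillary cell held 4.59 Cd34 UMIs per 10000 UMIs in aKO and 0 in aWT. Alveolar type 2-like cells, which should lack the gene and so measure free RNA, had a UMI in 1 of 16 aKO cells (6.25%) and 4 of 104 aWT cells (3.85%). Lymphatic cells, at 4.83% in aKO and 3.88% in aWT, lay near these shares, though 16 aKO cells give a wide interval (0.16 to 30.2%). Airway epithelial-like cells, a second background, had a UMI in 0 of 8 aKO and 0 of 59 aWT cells. Unthinned aWT levels were 4.69 CPM (1.28 to 12) in airway epithelial-like, 21.7 CPM (16.1 to 28.6) in lymphatic and 32.6 CPM (24.3 to 42.8) in alveolar type 2-like cells. The 2 backgrounds thus differed, and lymphatic cells are not read as expressing Cd34.

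Podxl, which encodes podocalyxin, was lower in aKO in the capillary classes and nearly level elsewhere. General capillary cells had 284 CPM (276 to 292) in aKO and 416 CPM (408 to 423) in aWT, a log2 ratio of -0.54, and aerocytes 377 CPM (361 to 392) in aKO and 491 CPM (478 to 505) in aWT, a ratio of -0.38. Both ratios were within the 2-fold limit, though the counting intervals were apart. Arterial cells had 304 CPM in aKO and 285 CPM in aWT, venous cells 320 CPM in aKO and 346 CPM in aWT, and lymphatic cells 180 CPM in aKO and 154 CPM in aWT, with log2 ratios between -0.11 and 0.22. Podxl was the most evenly spread of the 5 genes in aKO, where the highest class exceeded the lowest 2.09-fold, against 3.19-fold in aWT. At equal depth a UMI was found in 40.8% of aKO and 52.8% of aWT general capillary cells and in 28.9% of aKO and 25.5% of aWT lymphatic cells, against 0 of 16 aKO and 4 of 104 aWT alveolar type 2-like cells. Its level in lymphatic cells was thus above the free RNA background in both libraries, whereas Cd34 was near that of the alveolar type 2-like cells.

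Emcn, which encodes endomucin, a sialomucin known for marking veins and capillaries more than arteries, differed most in venous cells. There it stood at 1184 CPM (1156 to 1213) in aKO and 507 CPM (489 to 525) in aWT, a log2 ratio of 1.22. General capillary cells had 265 CPM (257 to 273) in aKO and 254 CPM (249 to 260) in aWT, a log2 ratio of 0.06. That ratio lies beside the median of all genes in the class, 0.11, and its sign changed under 3 alternatives, so no direction is given. Aerocytes had 759 CPM in aKO and 550 CPM in aWT (0.46), lymphatic cells 450 CPM in aKO and 266 CPM in aWT (0.75) and arterial cells 334 CPM in aKO and 178 CPM in aWT (0.89). The proliferating cell list was also higher in venous cells, at 441 CPM in aKO and 39.4 CPM in aWT, and its part in the Emcn difference was not tested. The class with the highest Emcn level was venous in aKO and aerocyte in aWT, where venous cells followed at 507 CPM against 550 CPM. At equal depth 80.1% of aKO and 55.6% of aWT venous cells had an Emcn UMI, and 35% of aKO and 35.7% of aWT general capillary cells did. Lymphatic cells had one in 53.3% of aKO and 35.7% of aWT cells, against 0 of 16 aKO and 4 of 104 aWT alveolar type 2-like cells, so Emcn, like Podxl, lay above background there.

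Arterial Emcn depended on how strongly the arterial list led. Among cells whose arterial list exceeded the next list by a factor of at least 6, Emcn stood at 254 CPM in 542 aKO cells and 41.4 CPM in 102 aWT cells. Among those that led by a factor of 2 to 3 it was 472 CPM in 317 aKO cells and 259 CPM in 249 aWT cells. The strongest arterial cells thus held the least Emcn in both libraries, and the libraries were furthest apart there. In cells with near-equal arterial and venous lists Emcn was 1099 CPM in 655 aKO cells and 353 CPM in 638 aWT cells, close to the venous level in aKO and below it in aWT. Asking for a lead of 3 moved the arterial log2 ratio of Emcn to 1.26, past the 2-fold limit, restricting cells to 3000 to 6000 UMIs moved it to 1.10, and scaling the marker lists within each library moved it to 0.51.

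Ly6a, the Sca-1 gene, was higher in aKO in each blood vessel class and had its highest level in aerocytes in both libraries. General capillary cells had 3072 CPM (3046 to 3099) in aKO and 1361 CPM (1348 to 1375) in aWT, a log2 ratio of 1.17. Arterial cells had 2885 CPM (2856 to 2914) in aKO and 1164 CPM (1127 to 1201) in aWT, a ratio of 1.31, and venous cells 1767 CPM (1732 to 1802) in aKO and 878 CPM (855 to 902) in aWT, a ratio of 1.00. In aerocytes the levels were 5545 CPM (5487 to 5605) in aKO and 4195 CPM (4157 to 4234) in aWT, with a log2 ratio of only 0.40. The venous value fell under the 2-fold limit in 5 of 18 alternatives, at 0.94 to 1.00. The order aerocyte, general capillary, arterial, venous, lymphatic was the same in both libraries, with no overlap between neighbours. Most blood vessel cells held a Ly6a UMI at equal depth. General capillary cells had 94.3% in aKO and 84.5% in aWT (unthinned 89.3% in aKO and 85.9% in aWT). Thinning left out 775 aKO and 1200 aWT shallow cells of this class. Shallow aKO cells held less Ly6a, as given below. Arterial cells had 91% in aKO and 73.1% in aWT (unthinned 94.5% in aKO and 82.6% in aWT). Venous cells had 88.2% in aKO and 69.5% in aWT (unthinned 94% in aKO and 85.2% in aWT). Lymphatic cells had 8.41% in aKO and 11.6% in aWT at equal depth. Alveolar type 2-like cells lay above this, with a UMI in 2 of 16 aKO cells (12.5%) and 14 of 104 aWT cells (13.5%). Whether those cells measure free RNA of Ly6a alone was not tested, and lymphatic cells are not read as expressing Ly6a.

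Ly6c1, the other GPI-anchored Ly6 gene, had larger ratios than Ly6a in each blood vessel class. General capillary cells had 2525 CPM (2501 to 2549) in aKO and 549 CPM (541 to 558) in aWT, a log2 ratio of 2.19 at rank 29 of 7267 genes. Arterial cells had 2032 CPM (2008 to 2056) in aKO and 581 CPM (555 to 607) in aWT, a ratio of 1.80. Venous cells had 659 CPM (638 to 681) in aKO and 174 CPM (164 to 185) in aWT, a ratio of 1.89. In each of these classes the aKO level was more than 3 times that of aWT. Aerocytes had 4471 CPM (4419 to 4525) in aKO and 2397 CPM (2368 to 2426) in aWT, a ratio of 0.90. At equal depth 91.8% of aKO and 59% of aWT general capillary cells held a Ly6c1 UMI (unthinned 87.25% in aKO and 69.24% in aWT). Arterial cells had 85% in aKO and 52.4% in aWT (unthinned 92.35% in aKO and 71.72% in aWT). For venous cells it was 62.6% in aKO and 24.4% in aWT (unthinned 88.95% in aKO and 46.09% in aWT). For aerocytes it was 98.1% in aKO and 93.6% in aWT (unthinned 97.35% in aKO and 92.64% in aWT). Lymphatic cells, at 7.55% in aKO and 3.88% in aWT, lay below alveolar type 2-like cells, where 5 of 16 aKO (31.3%) and 18 of 104 aWT cells (17.3%) had one. For Ly6c1 these cells may not measure free RNA alone, since they also held Ly6c2, the near-identical copy, at 47.3 CPM in aKO and 15.3 CPM in aWT.

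Ly6a and Ly6c1 did not differ by the same factor, so the makeup of their combined UMIs shifted. Of all Ly6a and Ly6c1 UMIs in general capillary cells, 45.1% (44.8 to 45.4) were Ly6c1 in aKO and 28.8% (28.4 to 29.1) in aWT. Aerocytes had 44.6% in aKO and 36.4% in aWT, arterial cells 41.3% in aKO and 33.3% in aWT, and venous cells 27.2% in aKO and 16.5% in aWT. It was higher in aKO in each of the 4 classes and lowest in venous cells in both libraries. The share counts UMIs and compares libraries, and it does not rank the 2 genes by abundance.

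**Figure D2:**
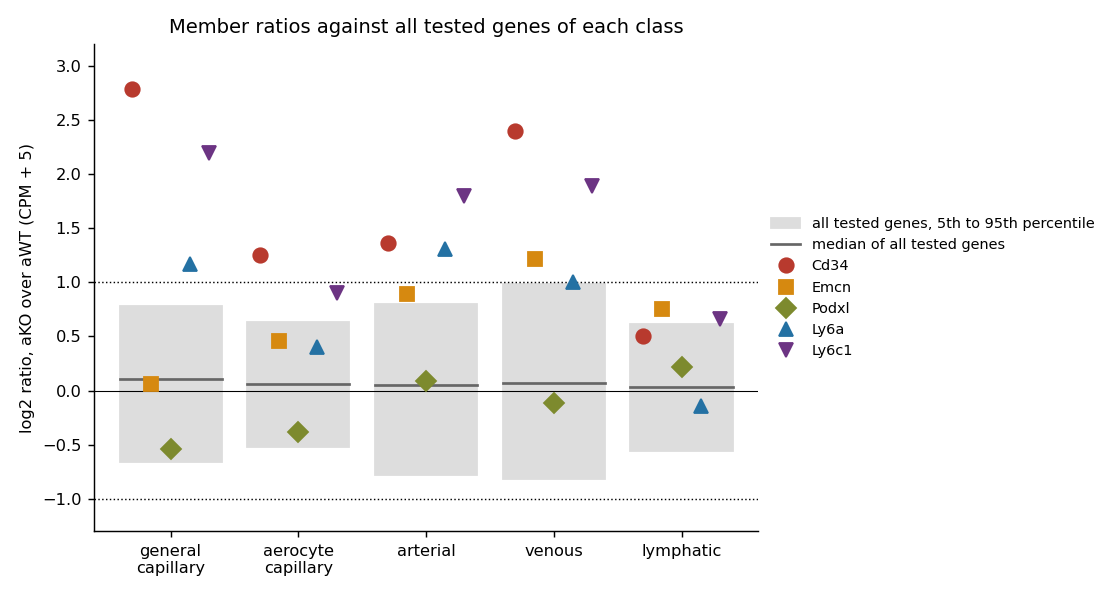
Log2 ratios of aKO over aWT (after adding 5 CPM) for the 5 genes in each class, as coloured symbols over a grey band that spans the 5th to 95th percentile of all genes tested in the class and a line at their median. Dotted lines mark the 2-fold limits; Cd34 and Ly6c1 lie above the band in all 4 blood vessel classes, and Podxl lies inside it in each class.

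By class totals Cd34, Ly6a and Ly6c1 had smaller ratios in aerocytes than in the other blood vessel classes. The order did not hold throughout. Among cells with 1000 to 2500 UMIs the log2 ratio of Ly6a was 1.08 in aerocytes, 0.47 in general capillary and 0.88 in arterial cells. That of Ly6c1 was 1.69 in aerocytes and 1.49 in both general capillary and arterial cells of this depth. With a lead of 3 asked for, Cd34 had 1.04 in arterial cells, below its 1.26 in aerocytes. Whether the ratios differ between classes was not tested, since each class gives 1 value. Aerocyte transcripts inside general capillary cells were looked at beside this, because 3 of the 5 genes peak in aerocytes. All 10 genes of the aerocyte list were detected in both libraries there, and the list summed to 1078 CPM in aKO and 765 CPM in aWT general capillary cells. Car4, the carbonic anhydrase of aerocytes, accounted for 469 CPM in aKO and 114 CPM in aWT, whereas Ednrb, an endothelin receptor gene of the same cells, stood at 13 CPM in aKO and 14.6 CPM in aWT. In aerocytes themselves Ednrb was at 1418 CPM in aKO and 1502 CPM in aWT. Of the 10 genes, 3 were higher in aKO general capillary cells and 7 lower. Besides Car4 the higher ones were Rprml, at 54.9 CPM in aKO and 1.7 CPM in aWT, and Apln, at 9.31 CPM in aKO and 3.29 CPM in aWT. Among the lower ones Tbx2 stood at 4.54 CPM in aKO and 16.8 CPM in aWT. The genes of the list thus differed in direction, and their part in the ratios of Cd34, Ly6a and Ly6c1 was not tested.

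**Figure D3:**
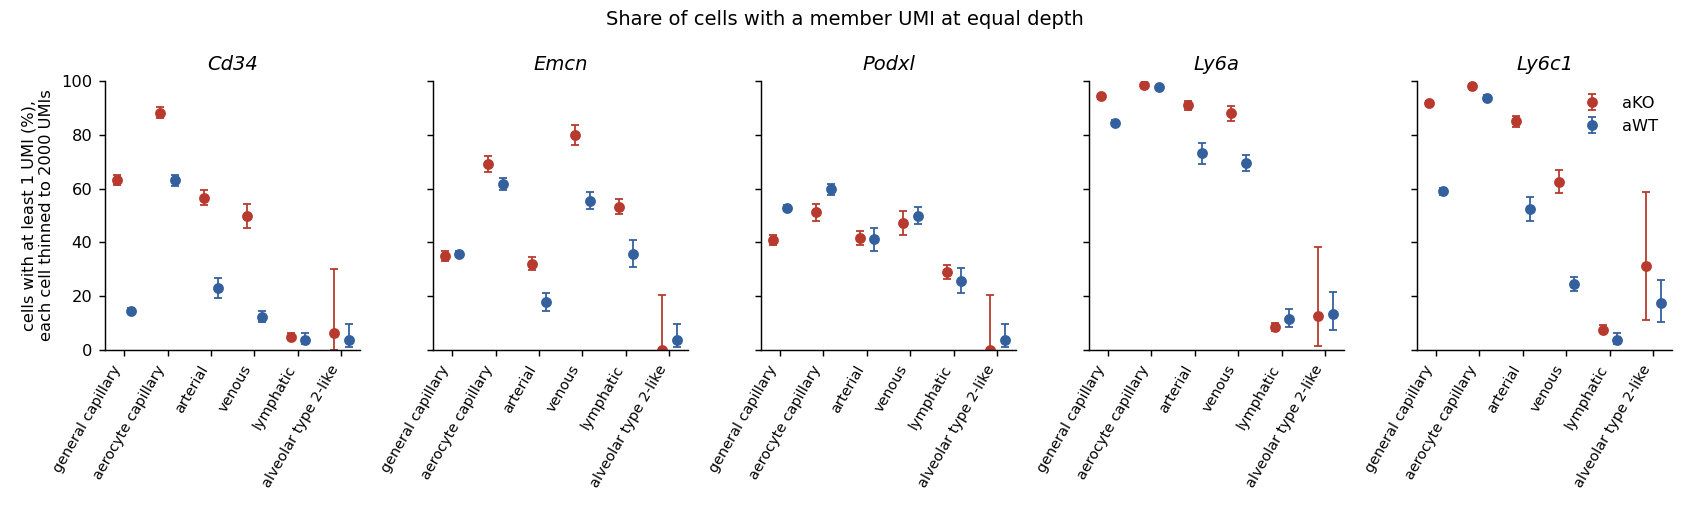
Percent of cells with at least 1 UMI of each gene after thinning every cell to 2000 UMIs, aKO in red left of aWT in blue, with exact Clopper-Pearson 95% intervals. Shown are the 5 endothelial classes and alveolar type 2-like cells. The latter serve as a measure of free RNA, a use that was not tested for Ly6a and Ly6c1. Cd34 in general capillary cells reads 63.2% in aKO and 14.7% in aWT, lymphatic Cd34 and Ly6a lie at the level of the alveolar type 2-like cells, and lymphatic Ly6c1, at 7.55% in aKO and 3.88% in aWT, lies below it.

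Levels also varied along the marker scale within a class. In aKO general capillary cells Cd34 was 706 CPM where the list led by a factor of 2 to 3 and 532 CPM where it led by at least 6. In aWT the same bins held 89.9 CPM (81.8 to 98.7) and 80.3 CPM (75.2 to 85.6), with overlapping counting intervals. Ly6c1 ran the same way, at 2808 and 2176 CPM in the aKO bins and 611 and 481 CPM in the aWT bins. The aKO bins also differed in depth, with medians of 4945 and 3947 UMIs per cell, and the part of depth was not tested. Aerocytes went the opposite way: with a lead of at least 6 Cd34 was 1425 CPM in aKO and 585 CPM in aWT, and with a lead of 2 to 3 it was 889 CPM in aKO and 335 CPM in aWT. Both Cd34 and Ly6c1 were thus highest in the cells with the clearest aerocyte markers. Those cells were also deeper, with medians of 5748 UMIs per cell in aKO and 4738 in aWT. At a lead of 2 to 3 the medians were 3090 in aKO and 2488.5 in aWT. The part of depth in this aerocyte difference was not tested. In general capillary cells both were lower where their own list led most, except that aWT Cd34 did not differ beyond counting error. Cells that carried both capillary lists without a clear leader lay in between, with Cd34 at 863 CPM in 629 aKO cells and 200 CPM in 312 aWT cells. Such cells can also be doublets that scored below the limit, and their part was not tested.

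Cells between general capillary and venous lists showed the widest Cd34 gap, at 426 CPM (384 to 471) in 145 aKO cells and 41.9 CPM (34.4 to 50.6) in 524 aWT cells. Their Emcn level was 689 CPM in aKO and 322 CPM in aWT, and Ly6c1 was 1937 CPM in aKO and 286 CPM in aWT. In aKO these cells lay between the general capillary and venous classes for Emcn and Ly6c1. Cells between general capillary and arterial lists had Cd34 at 606 CPM in 217 aKO cells and 76.6 CPM in 877 aWT cells, and Podxl at 327 CPM in aKO and 385 CPM in aWT. The endothelial cells without a leading list as a whole had log2 ratios of 2.40 for Cd34, 1.21 for Emcn, -0.24 for Podxl, 0.90 for Ly6a and 1.76 for Ly6c1, with the same signs as in venous cells.

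**Figure D4:**
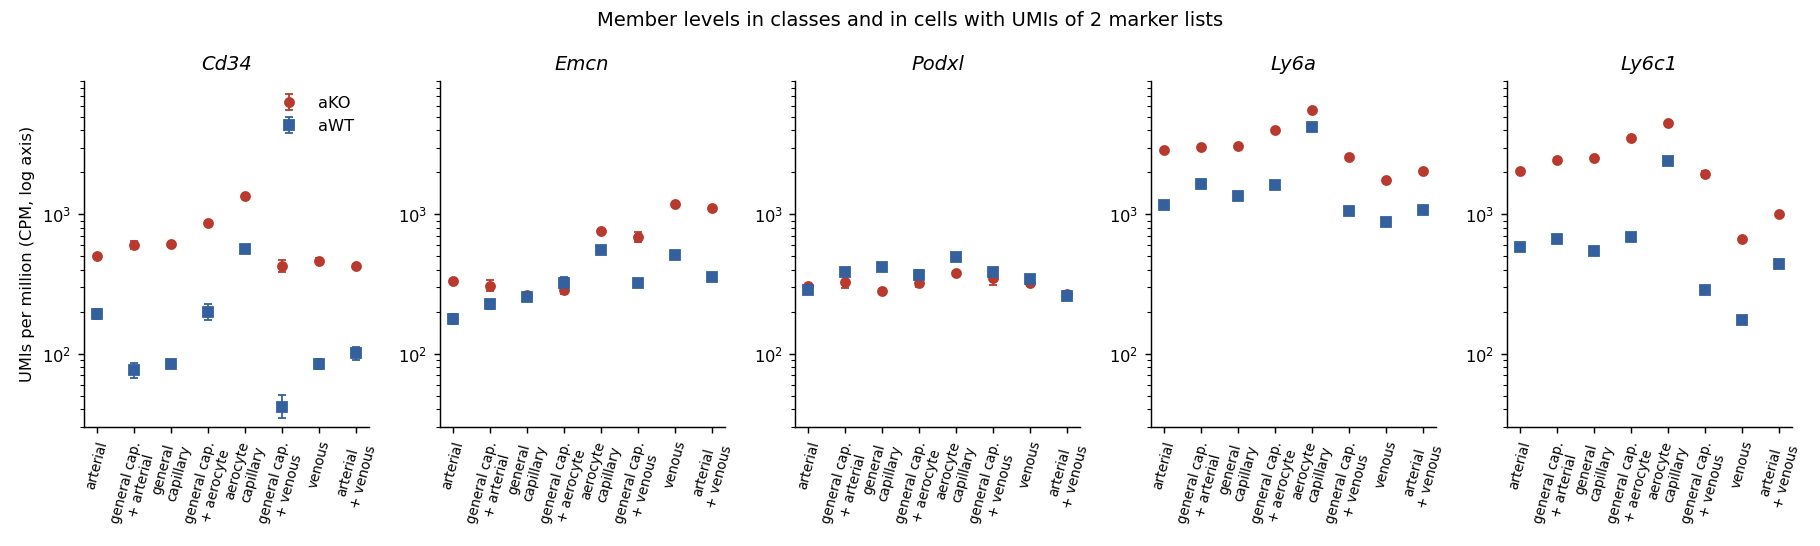
Levels of the 5 genes (CPM on a log axis, exact Poisson 95% intervals) in 4 blood vessel classes and in cells with at least 3 UMIs of each of 2 marker lists and no clear leader, aKO as red circles and aWT as blue squares. Cd34 separates the libraries at every position, with the widest gap in cells between general capillary and venous lists (426 CPM in aKO, 41.9 CPM in aWT), while the Podxl points lie close together.

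Depth differed between the libraries, so the ratios were read again among cells of like UMI count. In general capillary cells the log2 ratio of Cd34 was 2.07 among cells with 1000 to 2500 UMIs, then 2.58, 2.83 and 2.96 in the bins up to 4000, 6000 and 10000 UMIs. Ly6c1 had 1.49, 1.88, 2.17 and 2.48 and Ly6a 0.47, 0.82, 1.18 and 1.44 in the same order, while Podxl had -1.09, -0.65, -0.55 and -0.49. The direction held in each bin for these 4 genes, and the ratios of Cd34, Ly6c1 and Ly6a were smallest among the shallowest cells. There aKO cells held 1284 CPM of Ly6a, against 3474 CPM in aKO cells with 6000 to 10000 UMIs, while aWT cells held 923 and 1281 CPM. The shallow aKO cells therefore differed from the deeper aKO cells in these genes, which the class totals average over.

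The arterial Cd34 ratio differed between bins. It was 2.23, 2.31 and 2.15 in the 3 bins below 6000 UMIs and 1.02 among cells with 6000 to 10000 UMIs. The aKO level was 300, 462, 498 and 525 CPM along these bins, and the aWT level 59.8, 89.1, 108 and 257 CPM. Restricting arterial cells to 3000 to 6000 UMIs gave a log2 ratio of 2.23, and asking for a lead of 3 gave 1.04, against 1.37 in all arterial cells. Cells that also held a UMI of Gja5, Bmx or Dkk2, genes of arterial endothelium, had Cd34 at 462 CPM in 884 aKO cells and 197 CPM in 523 aWT cells. In venous cells Ly6c1 moved to a log2 ratio of 2.61 at 3000 to 6000 UMIs, a range that held 101 aKO and 449 aWT venous cells.

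**Figure D5:**
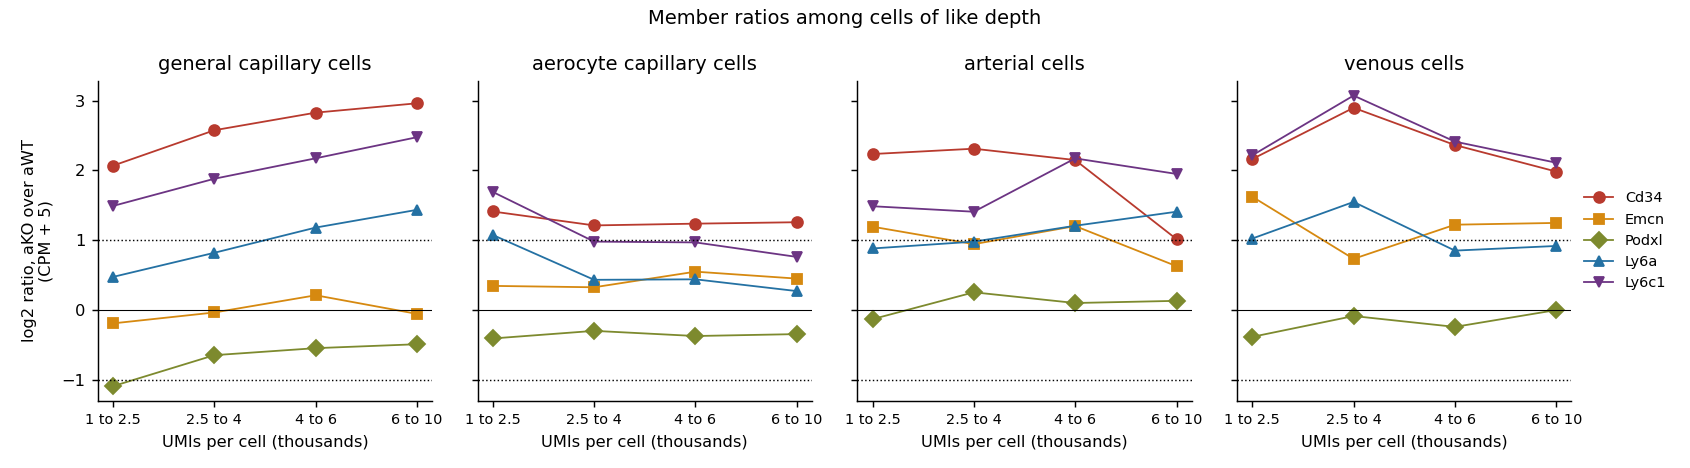
Log2 ratio of aKO over aWT (after adding 5 CPM) for the 5 genes within bins of UMIs per cell, in 4 blood vessel classes; the horizontal axis gives the bin, in units of 1000 UMIs, and dotted lines mark 2-fold. Cd34 and Ly6c1 stay above 2-fold in each bin of general capillary, arterial and venous cells, and arterial Cd34 drops to 1.02 in the deepest bin.

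Whether the genes shared cells was read from thinned cells. In aKO general capillary cells Cd34 and Ly6c1 UMIs were found together in 59.6% of cells, where the product of the separate shares gives 58%. In aWT they were found together in 9.05% of cells, with a product of 8.65%. Cd34 and Emcn were together in 23.3% of aKO general capillary cells (product 22.1%) and 5.5% of aWT cells (product 5.23%). In aWT arterial cells 12 of 513 cells (2.34%) held both Cd34 and Emcn, against a product of 4.08%, while 19.7% of aKO arterial cells held both (product 18.2%). Ly6a and Ly6c1 shared cells more often than their product in each blood vessel class of both libraries. Arterial cells held both in 81.4% of aKO cells (product 77.4%) and 43.1% of aWT cells (product 38.3%). Of aKO arterial cells with a Ly6a UMI 89.4% had a Ly6c1 UMI, against 40.8% of those without, and in aWT it was 58.9% with and 34.8% without. In general capillary cells both were found in 88.3% of aKO cells (product 86.5%) and 52.2% of aWT cells (product 49.8%).

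Across the 10 values that 5 classes in 2 libraries give, Cd34 and Ly6c1 had a Pearson r of 0.96 on the log2 scale, Ly6a and Ly6c1 0.96, and Cd34 and Ly6a 0.92. Emcn followed none of the others, with r from 0.20 to 0.39. These points share libraries and depth, and the lymphatic values sit far below the rest, so r is given as a description. Among 5831 genes with at least 50 CPM in 1 value, the 3 most like Cd34 were Nr1h2, an oxysterol receptor gene (0.97), Cyfip1, an actin regulator (0.97), and Trappc6b, a vesicle tethering gene (0.97). For Ly6a they were Esam, an endothelial adhesion molecule, Mfng, a Notch-modifying glycosyltransferase, and Pak4, a kinase (0.98 each). Those for Ly6c1 were Pdlim2, Rhbdf2 and Ramp2, the adrenomedullin receptor partner (0.98, 0.98 and 0.97). Esam and Ramp2 are also on the list that defined endothelial cells. A high r does not mean a like range. Over the 10 values Cd34 ran from 21.7 to 1352 CPM, Nr1h2 from 37.6 to 67.7 CPM, Cyfip1 from 156 to 258 CPM and Trappc6b from 83.8 to 199 CPM. The genes closest to Podxl were Glis2, Acvrl1 and Tram2 (0.97, 0.96 and 0.96), and those closest to Emcn were Slc29a1, a nucleoside transporter gene, Ddx18 and Cnih1 (0.92, 0.91 and 0.89).

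Other genes of the same families and of the steps that build or anchor these proteins were counted in general capillary cells, on lists that were drawn up with earlier results of these data known. Of 12 genes on a list named for the CD34 family and other sialomucins 6 reached the level limit, and Cd34 alone was past 2-fold. The list median log2 ratio was -0.18 beside 0.11 for all genes. Mcam, an adhesion molecule gene also counted among the other endothelial surface genes below, was at 375 CPM in aKO and 317 CPM in aWT. Cd164, a sialomucin gene, was at 64.9 CPM in aKO and 87.8 CPM in aWT. Of 30 genes of the Ly6 and uPAR superfamily 5 reached the limit and 3 were past 2-fold, all higher in aKO, where 2.97% of all genes were. The list median of 1.17 is the value of Ly6a itself. Both lists hold genes of the 5, which were chosen on these data, so nothing is read from their counts and medians. Besides Ly6a and Ly6c1 the gene past 2-fold was Plaur, the gene of the urokinase receptor uPAR, at 371 CPM in aKO and 88.6 CPM in aWT (log2 ratio 2.01). Plaur was also past 2-fold and higher in aerocytes, arterial and venous cells, with log2 ratios of 1.11, 2.11 and 1.59.

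The genes of the family differed in their ratios. Ly6e, a neighbour of Ly6a in the cluster, had 1290 CPM in aKO and 928 CPM in aWT general capillary cells, a log2 ratio of 0.47. Gpihbp1, which carries lipoprotein lipase to the capillary lumen and is itself on the general capillary list, had 626 CPM in aKO and 779 CPM in aWT there (-0.31), and was past 2-fold lower in aKO arterial cells at 24.4 CPM in aKO and 80.6 CPM in aWT (-1.54) and in venous cells at 78.1 CPM in aKO and 271 CPM in aWT (-1.73). In those larger vessels Ly6c1 and Gpihbp1 lay on opposite sides of 0. The class rule limits the general capillary list in these cells, so their Gpihbp1 values depend on that rule. The whole list summed to 672 CPM in aKO and 1253 CPM in aWT arterial cells. In venous cells it summed to 2061 CPM in aKO and 4536 CPM in aWT. Nothing about the family is therefore read from Gpihbp1 there.

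Genes that bind, glycosylate or anchor these proteins, like most genes tested, were mostly within 2-fold in general capillary cells. None of 9 measured partners of sialomucin tails (ezrin, radixin, moesin, NHERF and related genes) and none of 5 selectin and sialyl Lewis x genes was past it. Of 13 measured O-glycosylation genes 1 was, St6galnac2, a sialyltransferase gene, at 88.2 CPM in aKO and 36.9 CPM in aWT (1.15). Of 11 measured GPI anchor genes 1 was, Pigk, a subunit of the transamidase that attaches the anchor, at 134 CPM in aKO and 51.3 CPM in aWT (1.30). None of 7 glycocalyx proteoglycan and enzyme genes was past 2-fold. Of all 7267 genes tested in that class 5.66% were past 2-fold in either direction, so nothing is read from these counts. List medians were 0.26 for the tail partners, 0.19 for O-glycosylation, 0.18 for the GPI anchor and 0.02 for the selectin genes.

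Of 21 other endothelial surface genes measured, 16 were within 2-fold, 0 past 2-fold higher and 5 past 2-fold lower in aKO general capillary cells, with a median of -0.23. Of all genes tested in that class 2.97% were past 2-fold higher and 2.68% lower. The 4 widest were Cd93, a C-type lectin-like receptor gene, at 445 CPM in aKO and 1385 CPM in aWT (-1.63), Nrp1, a VEGF and semaphorin co-receptor gene, at 339 CPM in aKO and 807 CPM in aWT (-1.24), Eng, the ALK1 co-receptor gene, at 573 CPM in aKO and 1266 CPM in aWT (-1.14), and Kdr, the VEGF receptor 2 gene, at 139 CPM in aKO and 299 CPM in aWT (-1.07). The fifth, named after its value was seen, was Icam1, a leukocyte adhesion receptor gene, at 34.4 CPM in aKO and 74.2 CPM in aWT (-1.01). Of 19 measured interferon response genes in general capillary cells 17 were within 2-fold, 0 were past 2-fold higher and 2 lower, Iigp1 at 52.1 CPM in aKO and 132 CPM in aWT (-1.26) and Ifi44 at 12.1 CPM in aKO and 33.5 CPM in aWT (-1.17), with a median of -0.17. In arterial cells 2 of 17 were past 2-fold higher and 0 lower, with a median of -0.21. Of all arterial genes 3.02% were higher and 3.02% lower. The higher ones were Ifi27l2a at 274 CPM in aKO and 22.7 CPM in aWT (3.34) and Gbp4. Gbp4 stood at 96.2 CPM in aKO and 40.5 CPM in aWT (1.15). In venous cells 1 of 19 was past 2-fold higher, again Ifi27l2a, at 726 CPM in aKO and 63.8 CPM in aWT. There 3 were lower, with a median of -0.40, where 4.78% of all genes were higher and 3.18% lower. Aerocytes had 0 of 15 higher and 1 lower, against 1.52% and 1.61% of all genes. Lymphatic cells had 0 of 14 in either direction, against 2.82%. These counts rest on few genes, and whether the list differed between classes was not tested. The part of an interferon response in the Ly6a and Ly6c1 ratios was not tested.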

How the data were processed

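Single-cell libraries of sorted tdTomato+ lung cells were measured, 1 labelled aKO and 1 labelled aWT, and the titles gave the groups. Raw UMI counts, whole numbers without normalization, were deposited by the authors for every barcode and gene. The submitters' processing notes name Cell Ranger 7.2.0 and mm10. Neither the annotation release nor the handling of intronic reads is given there. The 5 genes, the gene lists and the marker lists were chosen with earlier results of these data known.

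Barcodes were kept from 500 genes upward if mitochondrial UMIs made up 15% or less. The automatic threshold of Scrublet (scanpy 1.11.5) called almost no aWT barcode, so barcodes with a score above 0.2 were removed in both libraries, 405 in aKO and 692 in aWT. This left 10380 aKO and 14959 aWT cells. Endothelial cells had at least 3 UMIs from at least 2 pan-endothelial genes and more of them than of any other lineage list. Marker UMIs per 10000 were divided by their 97.5th percentile over both libraries. A class needed 3 marker UMIs and a scaled value at least 2 times that of the next list, settings chosen from marker UMIs alone. Cells that led by less than 2.5 numbered 18 to 438 per class in aKO and 48 to 701 in aWT. Alveolar type 2-like cells had at least 20 UMIs of that list and over 2 times their endothelial UMIs. Airway epithelial-like cells were set in the same way from their own list.

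UMIs were summed per class and library and divided by that class total (CPM). A log2 ratio sets aKO over aWT with 5 CPM added on both sides, so differences of low genes come out smaller. CPM have exact Poisson and shares exact Clopper-Pearson 95% intervals. UMIs are not independent samples of animals, so these intervals cover counting error only. With 1 library each, the groups were not tested against each other. Genes named are the 5 genes, the 3 most like each by Pearson r, and up to 4 per list by size in general capillary cells. Mcam, Cd164, Ly6e, Gpihbp1, Icam1, Car4, Ednrb, Rprml, Apln, Tbx2, Ifi27l2a, Gbp4, Gja5, Slc6a2, Adgrl3, Id1, Sftpc and Lyz2 were named after their values were seen. Other tools were Python 3.11.15, numpy 2.4.6, scipy 1.17.1, Biopython 1.88 and matplotlib 3.10.9, and edgeR 4.0.16 for TMM factors.

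Alternatives were TMM and median-of-ratios factors, the mean over cells, another pseudocount, thinning, a depth range, looser and stricter cell filters, doublets kept, other class limits, another total and other CPM limits. Lists without Adgrl3, list scales set in each library, 1 to 5% mitochondrial UMIs, and arterial cells with a Gja5, Bmx or Dkk2 UMI were added after seeing the data.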

Additional observations from a re-analysis of the deposited data

How the results depend on the processing

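Over 19 alternatives, 375 of 455 recomputed values of the 5 genes moved by less than counting error and 80 by more. Alternatives that changed only the CPM limit cannot move a log2 ratio. Their values are among the 375 by construction, and they are also counted in the 18 and 19 alternatives given below. No call past 2-fold turned to the opposite sign, but some values crossed the limit. Venous Ly6a fell under it in 5 of 18 alternatives, which took the venous count to 3, against 4, and arterial Emcn passed it in 2 of 19, which took the arterial count to 4, against 3. In general capillary cells the log2 ratio of Cd34 ran from 2.63 to 2.92, of Ly6c1 from 2.03 to 2.25, of Ly6a from 1.01 to 1.24 and of Podxl from -0.66 to -0.44. The number of genes at least 2-fold higher in aKO lymphatic cells was 1 after thinning, 1 among cells with 3000 to 6000 UMIs and 2 with doublet calls kept, against 0. Signs changed for general capillary Emcn in 3 of 18 alternatives (range -0.02 to 0.15), lymphatic Cd34 in 1 (-0.58 to 1.03) and lymphatic Ly6a in 5 (-0.67 to 0.59). With no CPM limit the share of genes past 2-fold was 2.28% in general capillary, 3.11% in arterial and 4.21% in venous cells, 1.63% in aerocytes and 1.59% in lymphatic cells, since more low genes were counted. No paired analysis was possible because each group has 1 library. For the same reason, differences between animals could not be measured, and depth limits the lymphatic values, which rest on 50 aWT Cd34 UMIs.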
